A study of Mus musculus with 6 samples.

Results

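The 10 genes described here are adipocyte genes: Adipoq, Lep, Retn, Cfd, Ucp1, Plin1, Plin4, Cidec, Lpl and Fabp4. They were chosen by name, as a check on fat around the kidney in renal cortex RNA, and make up 10 of the 37323 genes on the array. Each was found as a non-control probe whose gene name, or whose RefSeq accession through the current gene table, gave the symbol. Together they had 20 probes, of which 6 belonged to Lpl, 3 to Plin1, 2 each to Cfd, Retn and Fabp4, and 1 each to the others.

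RNA was measured on 6 one-colour Agilent arrays of renal cortex from male C57BL/6 mice. The WT diabetic group held 3 samples and the C3aR-/- diabetic group held 3 samples, the latter from mice without the receptor for the complement fragment C3a. All were fed a diet with 60% fat from 8 weeks of age, received streptozotocin (STZ, a toxin of pancreatic beta cells) at 60 mg/kg on 3 days after 4 weeks of diet, and were killed 26 weeks after STZ. All 6 samples were thus from diabetic mice on the same diet, and non-diabetic mice were not analysed here.

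Levels are log2 signals relative to the 75th percentile of the same array, so 0 is the level of a well-expressed gene and a value near -5 is close to background. The lowest level that was well above background lay between -5.37 and -4.75 across the arrays, and from 58.6% to 63.0% of probes were well above background on an array. Differences are C3aR-/- minus WT with the limma standard error over 3 arrays a group. The labels do not state that replicates were separate animals, and the p-values then cover only the spread among these 6 arrays, which may be technical. WT replicate 1 and C3aR-/- replicate 2 stood at opposite ends of the first principal component, which held 43.1% of the variance. C3ar1, the targeted gene, ranged from -3.86 to -2.96 in WT and from -4.95 to -4.10 in C3aR-/-, and the position of its probe relative to the deletion was not looked up.

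Adipocytes store triglyceride in a single large droplet and secrete hormones. Perilipin 1, encoded by Plin1, coats that droplet and adiponectin, encoded by Adipoq, is secreted almost only by fat cells, so both serve as defining markers. Other members are shared with further cell types: lipoprotein lipase (Lpl) and the fatty acid carrier Fabp4 are also found in muscle, macrophages and capillary endothelium. Fat beside the kidney and adrenal of mice can contain brown adipocytes, whose mitochondria produce heat through uncoupling protein 1, the product of Ucp1.

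The 10 genes did not move as a group. Cfd and Ucp1 were high on 1 array of each genotype, WT replicate 3 and C3aR-/- replicate 3, and low or at background on the other 4, while Fabp4, Lpl, Lep and Plin4 did not share that pattern. Plin1 was not well above background on any array and Adipoq on only the same 2 arrays as Cfd and Ucp1 were highest. The defining markers of fat cells were therefore at or near background in these samples, and the genes are called adipocyte genes here and not a measure of perirenal fat. In bulk RNA, fewer cells of a type and less RNA per cell cannot be told apart.

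The probes of the 3 genes that shared this pattern are shown because each level is read from a 60-base stretch. They are written 5′ to 3′ on the plus strand of mm9. The Adipoq probe lies at chr16:23157576-23157635, the upstream of the 2 Cfd probes at chr10:79355274-79355333 and the Ucp1 probe at chr8:85821788-85821847. The capitals in the Cfd probe mark the 32 bases that it shares with the other Cfd probe, at chr10:79355302-79355361. The Cfd levels given first below come from that downstream probe, whose sequence is not printed, and the printed one is the second Cfd probe described.
Adipoq: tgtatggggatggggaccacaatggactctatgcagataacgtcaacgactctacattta
Cfd: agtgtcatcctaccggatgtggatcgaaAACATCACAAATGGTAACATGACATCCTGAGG
Ucp1: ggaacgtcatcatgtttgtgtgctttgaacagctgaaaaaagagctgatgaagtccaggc
The 2 Cfd probes overlap, so their agreement over the arrays is a repeat of nearly the same measurement and not an independent one. Which exon or untranslated region each probe lies in was not looked up, since no annotation of mm9 was used here.

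**Figure D1:**
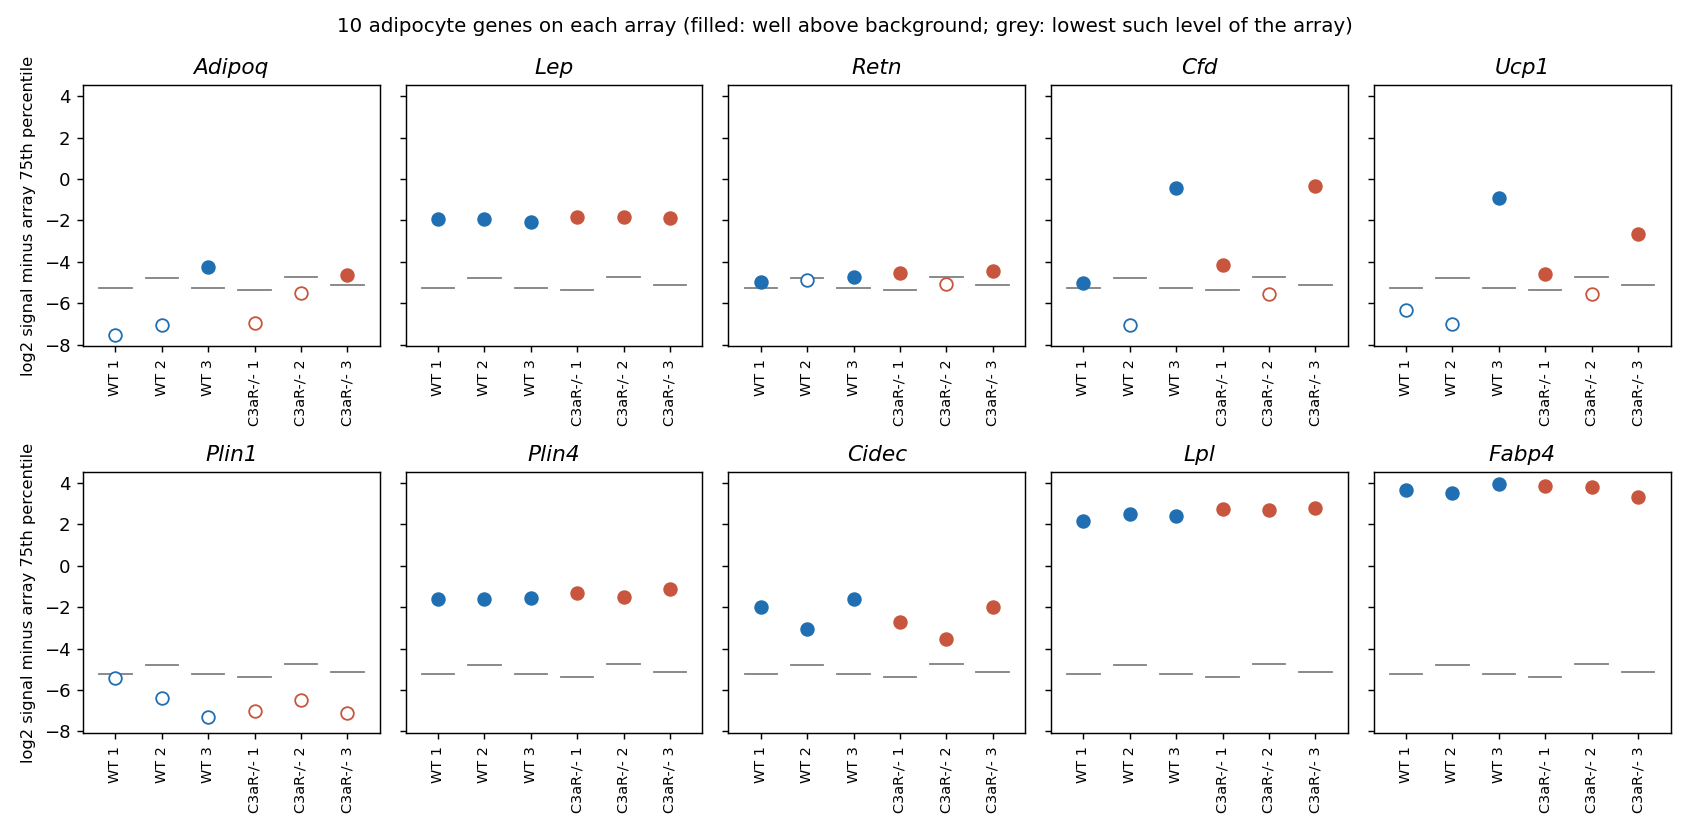
Log2 signal minus the 75th percentile of the array (y axis) of the 10 genes on each of the 6 arrays (x axis, WT in blue and C3aR-/- in red); filled points were well above background, open points were not, and grey lines mark the lowest level well above background on each array. Cfd and Ucp1 stand high on WT replicate 3 and C3aR-/- replicate 3, Plin1 is open on every array, and Lep stays between -2.06 and -1.84.

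Adipoq encodes adiponectin, a hormone that raises fatty acid oxidation in liver and muscle. In WT it read -7.52, -7.05 and -4.24, and in C3aR-/- it read -6.98, -5.53 and -4.61. Only the last of each group, replicate 3, was well above background, and each group had 1 high and 2 low arrays, so the groups overlapped. In unscaled processed signal these were 32.2 on WT replicate 3 and 26.7 on C3aR-/- replicate 3, against 3.80 to 11.8 on the other 4. Against the lowest level well above background on each of those 4 arrays, WT replicate 3 was at least 1.42-fold to 2.18-fold higher. Adipoq was under the detection filter of 3 arrays, so it has no adjusted p. Without that filter the difference was 0.56 ± 1.02 (limma, unadjusted p = 0.60).

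Cfd encodes adipsin, or complement factor D, the serine protease that cuts factor B in the alternative complement pathway and thereby helps to form the C3 convertase that releases C3a. The WT arrays gave -5.04, -7.07 and -0.44, and the C3aR-/- arrays gave -4.15, -5.53 and -0.36. The 2 replicate 3 arrays were near each other and far above the rest, and the second replicate of each group was not well above background. In processed signal, WT replicate 3 read 449 and C3aR-/- replicate 3 read 512, while the other 4 arrays read from 5.0 to 36. Within WT, replicate 3 was 24.2-fold above replicate 1 and at least 20.3-fold above replicate 2, and within C3aR-/- replicate 3 was 13.9-fold above replicate 1 and at least 21.0-fold above replicate 2.

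The spread within each genotype exceeded the difference between genotypes for Cfd. The mean over WT arrays was -4.18 ± 3.39 (SD, n = 3) and the mean over C3aR-/- arrays was -3.35 ± 2.68 (SD, n = 3). The difference of 0.84 ± 1.98 did not pass (limma, adjusted p = 0.963). Single arrays set its sign: removing C3aR-/- replicate 3 gave -0.66 ± 1.92, removing WT replicate 2 gave -0.60 ± 1.95 and removing WT replicate 3 gave 2.71 ± 1.61. Without WT replicate 1 and C3aR-/- replicate 2 it was 1.5 ± 2.6. With both replicate 3 arrays left out, an alternative chosen after the data were seen, it was 1.21 ± 0.83 (limma, adjusted p = 0.898). The upstream Cfd probe, whose sequence is printed above, gave levels of -7.53, -7.05 and -0.97 in WT and -4.90, -6.00 and -0.86 in C3aR-/-, again high on replicate 3 of each group, with a difference of 1.26 ± 2.05.

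Ucp1, the uncoupling protein of brown fat, followed the same arrays. Its levels were -6.33, -7.02 and -0.91 in WT and -4.61, -5.54 and -2.66 in C3aR-/-. It was well above background on WT replicate 3, C3aR-/- replicate 3 and C3aR-/- replicate 1, and its processed signal was 324, 103 and 26.2 there, against 5.16 to 11.6 on the other 3. WT replicate 3 was at least 20.1-fold above WT replicate 1 and 3.36-fold above C3aR-/- replicate 3, and C3aR-/- replicate 3 was 3.85-fold above C3aR-/- replicate 1. WT averaged -4.76 ± 3.34 (SD, n = 3) and C3aR-/- averaged -4.27 ± 1.47 (SD, n = 3), so the difference was 0.49 ± 1.67 (limma, adjusted p = 0.977). It became -0.08 with normexp background correction, 2.41 ± 0.85 without WT replicate 3 (limma, unadjusted p = 0.0346, adjusted p = 0.881) and -0.65 without WT replicate 2. With both replicate 3 arrays left out it was 1.60 ± 0.41 (limma, unadjusted p = 0.0145, adjusted p = 0.898), over arrays of which only C3aR-/- replicate 1 was well above background.

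Cfd and Ucp1 had among the widest spreads over the 6 arrays of all 22741 genes tested. The highest and lowest arrays were 6.71 apart on the log2 scale for Cfd, with 1 gene wider, and 6.11 apart for Ucp1, with 4 genes wider. For both, the lowest array was not above background, so the measured range is not a fold change between expressed levels. Cidec followed with a range of 1.90, which 3.03% of genes exceeded. Fabp4, Retn, Lpl and Plin4 had ranges from 0.47 to 0.67, around the median of 0.52 over all genes, exceeded by 35.9% to 55.4% of genes, and Lep had 0.22, exceeded by 89.5%.

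**Figure D2:**
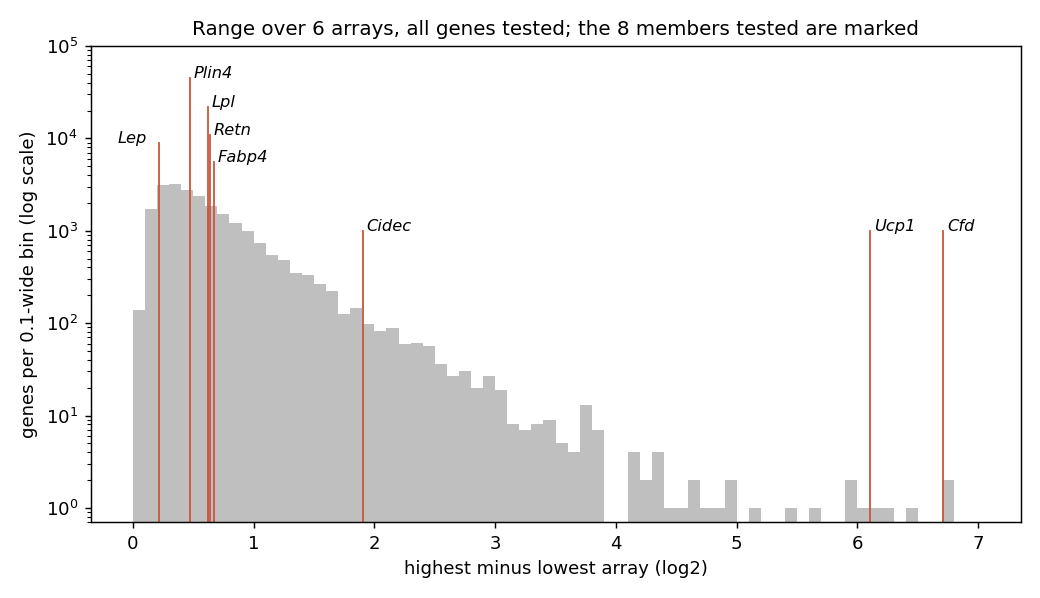
Distribution of the difference between the highest and the lowest of the 6 arrays (x axis, log2 units) over all 22741 genes tested (y axis, genes per bin, log scale), with the 8 adipocyte genes that passed the detection filter marked by red lines. Cfd at 6.71 and Ucp1 at 6.11 lie at the far right, Cidec at 1.90 is apart from the bulk, and the other 5 lie within it.

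Over the 6 arrays, the level of Cfd correlated with that of Ucp1 at r = 0.95, and Adipoq correlated with Cfd at 0.81 and with Ucp1 at 0.86. These are descriptions over 6 arrays that rest on the 2 high ones, and values of genes at background carry little order. Cfd correlated with Cidec at 0.76, with Lpl at 0.15, with Lep at -0.36 and with Fabp4 at 0.0016. WT replicate 3 and C3aR-/- replicate 3 were the top 2 arrays for 1189 genes, which is 5.23% of those tested; Cfd and Ucp1 were the members among them. The 2 arrays lay in different rows of the single slide, row 1 and row 2, and neither was at an end of the first principal component, whose ends were WT replicate 1 and C3aR-/- replicate 2.

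Brown fat genes outside the members were examined next, since Ucp1 marks that cell type. Of 13, 10 passed the detection filter, 8 read higher and 2 lower in C3aR-/- with a median difference of 0.25, and 1 had an unadjusted p under 0.05. Cox8b, a heart-type and brown-fat subunit of cytochrome c oxidase, read -5.44, -5.72 and -0.96 in WT and -3.64, -4.03 and -2.23 in C3aR-/-. It was highest on replicate 3 of each group, as Ucp1 was, at least 14.2-fold above the other WT arrays on WT replicate 3 and 2.67-fold above C3aR-/- replicate 1 on C3aR-/- replicate 3. The difference was 0.74 ± 1.30 (limma, adjusted p = 0.951), and it correlated at 0.95 with the mean of the members.

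Cidea, a lipid droplet protein abundant in brown fat, read -2.70, -2.36 and -0.37 in WT and -1.90, -2.44 and -1.22 in C3aR-/-. It too was highest on replicate 3 of each group, and its difference was -0.05 ± 0.64. Prdm16, a regulator of brown fat identity that is also found in other tissues, had a range of only 0.38 and correlated at 0.85 with the mean of the members. Elovl3, Dio2 and Zic1 of the same list were not well above background on any array. Cpt1b, which carries fatty acids into mitochondria of muscle and brown fat, gave the unadjusted p under 0.05, at 0.27 ± 0.10, with levels of -0.33, -0.11 and -0.24 in WT and -0.01, 0.05 and 0.09 in C3aR-/- (limma, adjusted p = 0.931). Fabp3 differed by 0.38 ± 0.17 and Otop1 by 0.54 ± 0.38, and neither was highest on the replicate 3 arrays. The list was therefore not uniform, since 4 of its 10 tested genes had the replicate 3 arrays as their top 2.

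Of 22 further adipocyte genes, 20 passed the filter, with 9 higher and 11 lower in C3aR-/- and a median difference of -0.01. None passed the adjusted threshold and 1, Slc7a10, a transporter of white adipocytes, had an unadjusted p under 0.05, at -0.59 ± 0.24 and a level near background. Mest differed by -0.33 ± 0.16 and Slc2a4, the insulin-responsive glucose transporter, by 0.31 ± 0.17. Scd1, the desaturase of fatty acid synthesis, came closest to the mean of the members in its pattern (r = 0.82), with -1.91, -1.98 and -1.02 in WT and -1.09, -2.47 and -1.12 in C3aR-/-. Sncg and Trarg1 followed at 0.74 and 0.67. Acvr1c, an activin receptor of adipocytes, was not well above background on any array, and 4 of the 20 tested had the replicate 3 arrays as their top 2.

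**Figure D3:**
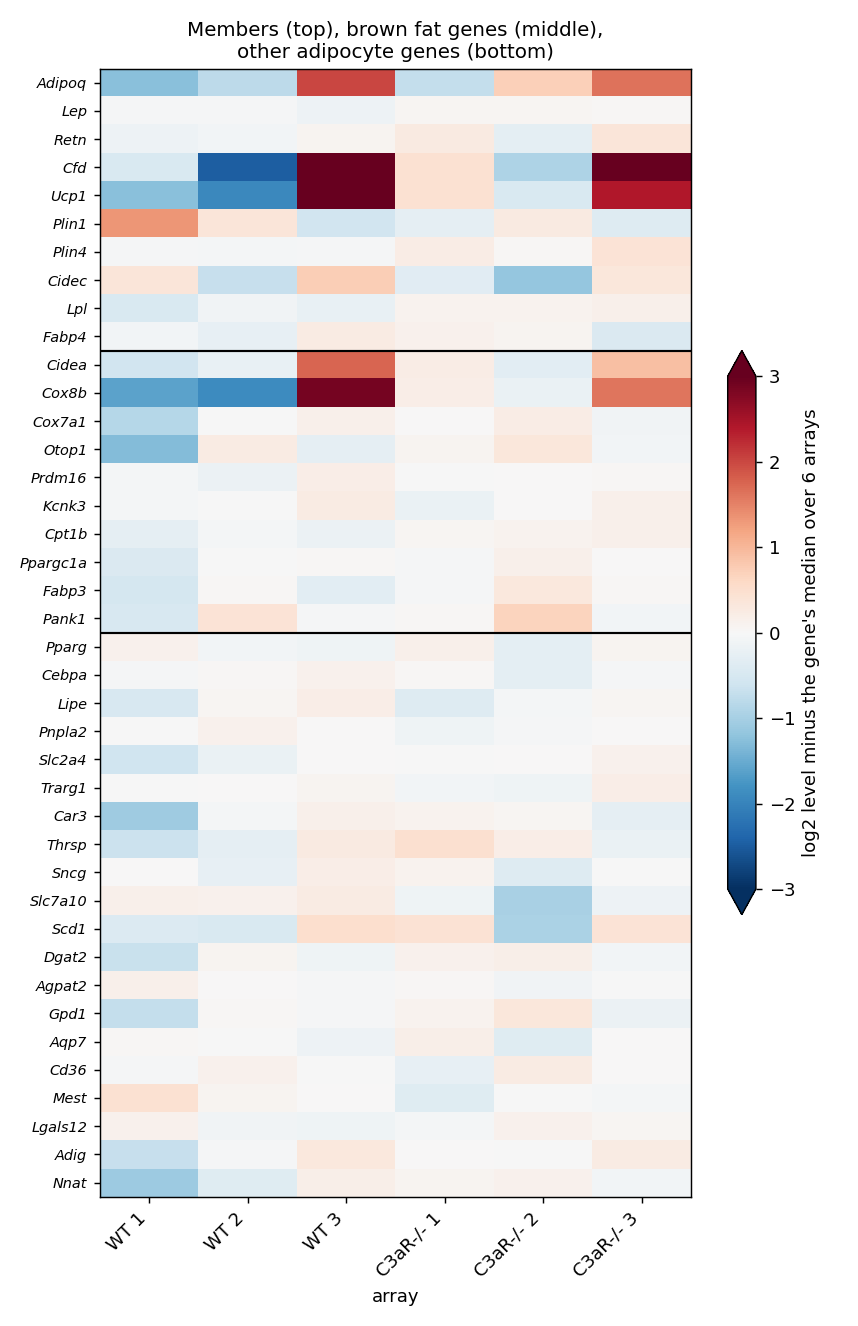
Level of each gene (rows) on each array (columns) minus the median of that gene over the 6 arrays, on a log2 colour scale that ends at 3 in either direction: the 10 members above the first line, the 10 tested brown fat genes between the lines and the 20 tested adipocyte genes outside the members below. Cfd is dark red on both WT replicate 3 and C3aR-/- replicate 3. Ucp1, Cox8b, Adipoq and Cidea are red on both and paler on C3aR-/- replicate 3. Plin1, below background throughout, and most other rows lack such colour on both.

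Over the whole table, the genes most like the mean of the 8 members tested included 2310069G16Rik (r = 0.99), Odf3b (0.98), Gm31267 (0.98) and Gm9961 (0.97). Gm31267 and Gm9961 were each well above background on only 3 arrays, with group means from -5.18 to -5.01, close to background. Odf3b read -3.50, -3.66 and -3.18 in WT and -3.35, -3.51 and -3.13 in C3aR-/-, highest on replicate 3 of each group over a narrow span. The mean itself rests largely on Cfd and Ucp1, since they have the widest spread. For all 10 genes, each centred on its own mean, the average was -0.37, -0.77 and 0.87 in WT and -0.13, -0.32 and 0.71 in C3aR-/-. Without Lpl and Fabp4, the members most shared with other cells, replicate 3 read 1.08 in WT and 0.91 in C3aR-/-.

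The 250 bases before the transcription start of these 3 genes are shown because their levels were highest on the same arrays. They come from RefSeq on GRCm38.p6, written 5′ to 3′ in gene direction, and 8 of the 10 genes had an entry. Cfd is taken from chr10:79890603-79890852, Ucp1 from chr8:83290098-83290347 and Adipoq from chr16:23146286-23146535, all on the plus strand. Capitals mark AGGTCA, the half-site bound by nuclear receptors such as the fat regulator PPAR gamma, or CCAAT, a common promoter box, on either strand.
Cfd: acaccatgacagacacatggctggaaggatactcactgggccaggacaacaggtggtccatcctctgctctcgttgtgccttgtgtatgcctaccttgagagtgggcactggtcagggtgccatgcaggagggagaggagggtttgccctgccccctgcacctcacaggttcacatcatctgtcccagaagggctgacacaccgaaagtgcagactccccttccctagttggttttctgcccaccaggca
Ucp1: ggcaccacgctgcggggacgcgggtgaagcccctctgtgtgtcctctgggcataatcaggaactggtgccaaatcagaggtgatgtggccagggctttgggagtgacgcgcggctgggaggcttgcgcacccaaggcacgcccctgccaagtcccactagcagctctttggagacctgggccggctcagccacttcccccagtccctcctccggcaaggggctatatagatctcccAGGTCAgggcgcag
Adipoq: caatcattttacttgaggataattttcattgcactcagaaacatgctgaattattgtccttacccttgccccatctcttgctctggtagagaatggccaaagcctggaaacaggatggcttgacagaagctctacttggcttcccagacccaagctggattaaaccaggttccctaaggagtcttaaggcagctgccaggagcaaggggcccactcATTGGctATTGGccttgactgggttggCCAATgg
AGGTCA was found in the Ucp1 window alone among the 8 genes, and in 14.0% of 32851 such windows of all genes. CCAAT was found in Adipoq and Plin4 and in 33.8% of all windows. The 2 motifs were searched on both strands and do not overlap each other in the windows shown, and the Cfd window holds neither. A match is a description of letters and not a binding site.

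Lep encodes leptin, the satiety hormone of white fat. Its levels were -1.94, -1.93 and -2.06 in WT and -1.84, -1.85 and -1.88 in C3aR-/-, all well above background. The C3aR-/- arrays were all above the WT arrays by a narrow margin, and the difference was 0.12 ± 0.09 (limma, adjusted p = 0.931). WT replicate 3, high for Cfd and Ucp1, was the lowest of the 6 arrays for Lep.

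Retn encodes resistin, an adipokine of mouse fat cells. Its levels were -4.95, -4.87 and -4.73 in WT and -4.52, -5.08 and -4.44 in C3aR-/-, at the edge of background, and the second replicate of each group was not well above it. The groups overlapped and the difference was 0.17 ± 0.19 (limma, adjusted p = 0.931). A second Retn probe was well above background on 2 arrays and read -2.89 on C3aR-/- replicate 2 and -4.45 on C3aR-/- replicate 3, so the probes disagreed (r = -0.42 over the 6 arrays).

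The lipid droplet coat was measured by Plin1, Plin4 and Cidec. The 3 Plin1 probes, spread over chr7:86866112-86873929 of mm9, were not well above background on any of the 6 arrays, so no fold is given. Plin4, a perilipin that binds nascent droplets, read -1.59, -1.60 and -1.57 in WT and -1.32, -1.52 and -1.13 in C3aR-/-. The groups did not overlap, and the difference was 0.26 ± 0.12 (limma, unadjusted p = 0.0712, adjusted p = 0.931). Cidec, which fuses small droplets into larger ones, read -1.98, -3.05 and -1.61 in WT and -2.70, -3.51 and -2.01 in C3aR-/-. The second replicate was lowest in each group and replicate 3 highest, the groups overlapped, and the difference was -0.52 ± 0.49 (limma, adjusted p = 0.931).

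Cidec is the member whose order over arrays came nearest to that of the macrophage markers (r = 0.80) and of the adipsin partners (r = 0.86). The 10 macrophage markers all read lower in C3aR-/-, with a median difference of -0.57 and 4 with an unadjusted p under 0.05, which 2.68% of all genes had in that direction. Their mean centred level ran from -0.09 to 0.62 in WT and from -0.62 to -0.16 in C3aR-/-, and the part of these markers in the Cidec values was not tested. Lyz2, lysozyme of myeloid cells, differed by -0.92 ± 0.21, Gpnmb by -1.27 ± 0.39, C1qa by -0.69 ± 0.21 and C1qb by -0.60 ± 0.21 (limma, adjusted p from 0.920 to 0.931). These 4 did not overlap between groups, and C3aR-/- was below WT without overlap in 4.19% of all genes.

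Of the 12 other droplet proteins, all passed the filter, 6 read higher and 6 lower, the median difference was 0.004, and 0 had an unadjusted p under 0.05. Pnpla3 of this list was well above background on 3 arrays and had a range of 4.63. It read -6.48, -5.40 and -1.85 in WT and -4.69, -5.25 and -5.10 in C3aR-/-, so only WT replicate 3 was high. Plin2, the perilipin of non-fat tissues, read 5.83, 5.13 and 4.86 in WT and 4.98, 5.02 and 4.94 in C3aR-/-, a difference of -0.29 ± 0.25, and WT replicate 1 was the highest array. Hilpda, an inhibitor of droplet lipolysis, differed by -0.31 ± 0.24 and Cideb by 0.28 ± 0.26.

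Lpl encodes lipoprotein lipase, which releases fatty acids from circulating lipoproteins. By its brightest probe, at chr8:71430267-71430326 of mm9, the levels were 2.16, 2.53 and 2.39 in WT and 2.74, 2.72 and 2.79 in C3aR-/-. All C3aR-/- arrays were above all WT arrays. The difference was 0.39 ± 0.12, or 1.31-fold (limma, unadjusted p = 0.0169, adjusted p = 0.931). Lpl was the 1 member with an unadjusted p under 0.05, where 4.89% of all genes had one and 2.21% had one in that direction, and none of the 8 passed after adjustment, as with all 22741 genes (0%).

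The 6 Lpl probes did not give 1 direction. The 3 probes with the RefSeq mRNA accession, between 14.1 and 24.7 kb downstream of the first, gave 0.17 ± 0.14, 0.40 ± 0.14 and 0.39 ± 0.12, all higher in C3aR-/-. The 3 upstream probes, with other transcript accessions, gave -0.49 ± 0.52, -0.38 ± 0.49 and -0.20 ± 0.27. At those, WT replicate 1 was lowest and WT replicate 3 highest, at -3.36 and -1.11 for the most upstream probe, and the C3aR-/- arrays lay in between, from -2.79 to -2.52. The mean over the 6 probes gave -0.02. What transcript the upstream probes measure was not tested.

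**Figure D4:**
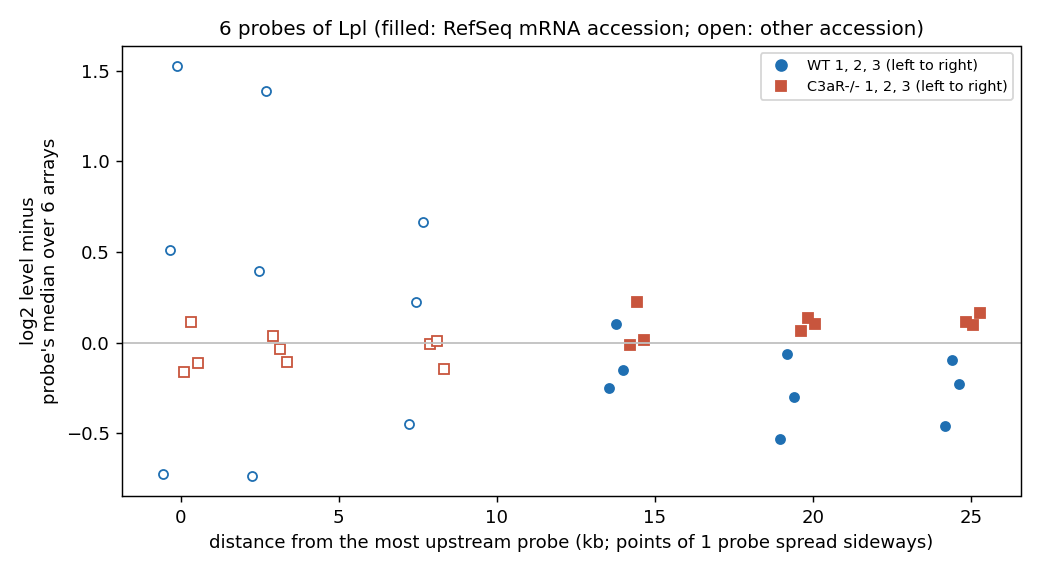
Level of each of the 6 Lpl probes minus its median over the arrays (y axis, log2) against the distance from the most upstream probe in kb (x axis), with WT as circles and C3aR-/- as squares, filled for probes of the RefSeq mRNA. At the 3 upstream probes the WT arrays spread on both sides of the C3aR-/- arrays, while at the 2 most downstream ones all C3aR-/- arrays lie above all WT arrays.

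Of 12 partners of Lpl, 9 passed the filter, 5 read higher and 4 lower, and the median difference was 0.06. Angptl4 is a secreted inhibitor of the lipase, and Apoc2 is its activator. Apoc2 differed by -0.44 ± 0.17 and Angptl4 by -0.42 ± 0.18, each with no overlap between groups (limma, adjusted p = 0.931 for each). Apoa5, Lipc and Lipg were not well above background on any array. Proximal tubule markers read in the direction of Lpl, 8 of 8 higher with a median of 0.48 and 0 with an unadjusted p under 0.05, and a mean centred level from -0.92 to 0.29 in WT and from -0.11 to 0.63 in C3aR-/-. The order of Lpl over the arrays correlated with that level at 0.74, the most positive of the 14 lists, and with that of the macrophage markers at -0.88, the most negative. The part of either list in the Lpl difference was not tested. Slc5a12 differed by 0.70 ± 0.39, Slc6a19 by 0.75 ± 0.44 and Lrp2 by 0.40 ± 0.26 among these.

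Fabp4, the fatty acid carrier of adipocytes, macrophages and capillary endothelium, was bright on every array. Its levels were 3.65, 3.50 and 3.98 in WT and 3.87, 3.83 and 3.31 in C3aR-/-. The groups overlapped, C3aR-/- replicate 3 was the lowest array and WT replicate 3 the highest, and the difference was -0.04 ± 0.20 (limma, adjusted p = 0.985). Leaving out WT replicate 3 gave 0.09 and leaving out C3aR-/- replicate 3 gave 0.14. A second probe gave -0.16, 0.065 and 0.46 in WT and 0.10, 0.29 and -0.53 in C3aR-/-, with the same lowest and highest arrays (r = 0.88 with the first). The 2 arrays that were both high for Cfd thus stood at opposite ends for Fabp4.

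The pattern of Fabp4 over the arrays was near that of the endothelial markers (r = 0.83), whose mean centred level was -0.25, -0.19 and 0.22 in WT and 0.36, 0.07 and -0.22 in C3aR-/-. Of those 10 markers 9 read higher and 1 lower in C3aR-/-, with a median of 0.16 and 0 with an unadjusted p under 0.05. Flt1 differed by 0.25 ± 0.21, Tek by 0.23 ± 0.20 and Ehd3 by 0.21 ± 0.21. Their part in the Fabp4 values was not tested. The mean of the Lpl partners was nearest to Fabp4 of the 14 lists (r = 0.91).

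**Figure D5:**
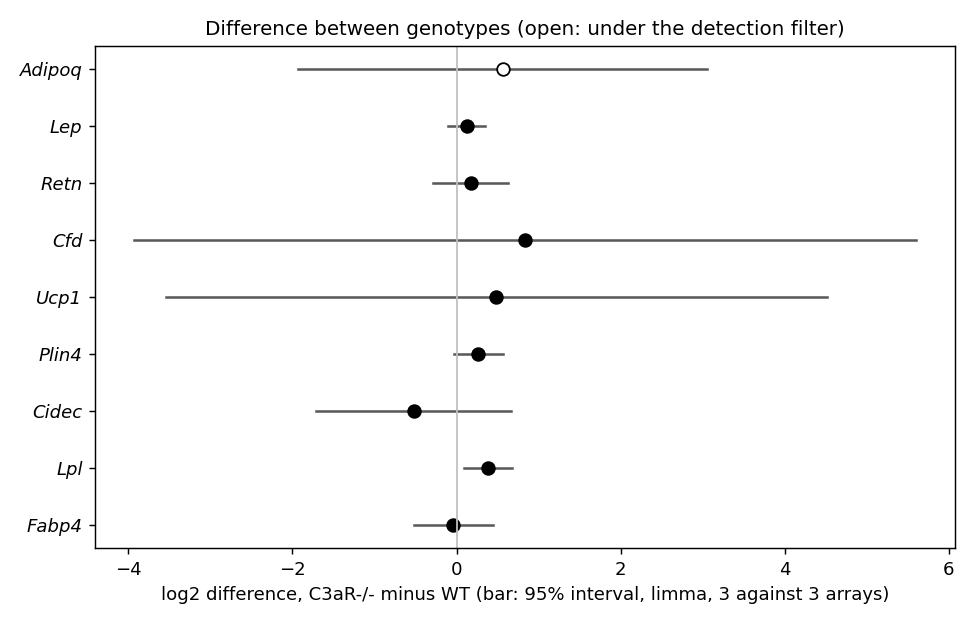
Difference between C3aR-/- and WT (x axis, log2) for the 9 genes above background on at least 1 array, with 95% intervals from limma over 3 against 3 arrays; the open point is Adipoq, under the detection filter. Intervals for Cfd, from -3.93 to 5.6, and Ucp1, from -3.54 to 4.51, span both directions, and that of Lpl, from 0.10 to 0.67, lies above 0 before adjustment.

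Of the 8 members tested, 6 read higher and 2 lower in C3aR-/-, with a median difference of 0.22, and over all genes 56.6% read higher with a median of 0.03. In Lpl, Plin4 and Lep all C3aR-/- arrays were above all WT arrays, which is 3 of 8 where 5.65% of all genes did so. None of the 8 was below without overlap, where 4.19% of genes were, and in either direction 9.84% of genes did not overlap. The 3 are the members with the narrowest ranges of those tested, and the other 5 overlapped. With 3 against 3 arrays, an exact two-sided permutation test cannot go below 0.1. The median stayed above 0 in all 20 settings tried, between 0.00018 without WT replicate 2 and 0.37 without C3aR-/- replicate 2. It was not above the median of all genes in every setting. Without WT replicate 2 the median over all genes was 0.025, and 4 members read higher and 4 lower, where 54.8% of genes read higher. Without WT replicate 1 and C3aR-/- replicate 2, which stood apart in the first component, the median was 0.31. The difference was then 0.30 ± 0.10 for Lpl, 0.36 ± 0.11 for Plin4 and 0.32 ± 0.11 for Retn (limma, adjusted p from 0.535 to 0.544). For Cidec it was -0.021 ± 0.553 (limma, adjusted p = 0.995). In that setting 2025 of 22741 genes had an unadjusted p under 0.05 with limma, against 1111 in the main fit.

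The partners of the secreted members were measured in all samples. Adipsin acts with C3, factor B (Cfb) and properdin (Cfp), and is opposed by factors H and I, and of these 5 genes 2 read higher and 3 lower, with a median of -0.04. Cfp read 2.12, 1.37 and 2.0 in WT and 1.44, 0.68 and 1.5 in C3aR-/-, a difference of -0.62 ± 0.29, C3 differed by -0.26 ± 0.22 and Cfb by 0.09 ± 0.14 (limma, adjusted p from 0.931 to 0.947). The 5 receptors of leptin, adiponectin and resistin gave 3 higher and 2 lower, with a median of 0.03, Lepr at -0.12 ± 0.19, Cap1 at -0.06 ± 0.10 and Adipor1 at 0.06 ± 0.10. No gene of either list had an unadjusted p under 0.05.

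Markers of other tissues that border the cortex were read on the same arrays. Of 8 genes of fat stroma and mesothelium 5 passed the filter, 3 higher and 2 lower with a median of 0.12. The mesothelial markers differed in detection. Upk3b was not well above background on any array. Msln was well above background on 4 arrays and highest on WT replicate 1, at -2.93. Lrrn4 was well above background on 1 array, reading -3.64 on C3aR-/- replicate 3 and from -7.64 to -6.74 on the others. Dpp4 differed by 0.16 ± 0.12, Pi16 by 0.12 ± 0.14 and Dlk1 by 0.15 ± 0.35. Their mean centred level was 0.23, -0.36 and 0.08 in WT and 0.19, -0.02 and -0.11 in C3aR-/-, with WT replicate 1 highest. Pi16, a fibroblast marker of this list, was highest on the arrays high for Cfd and Ucp1, at 0.98, 0.92 and 1.31 in WT and 1.21, 1.05 and 1.31 in C3aR-/- (r = 0.96 with the mean of the members), over a narrow span. Of 12 adrenal genes 7 passed, all 7 higher with a median of 0.15. The steroid enzymes Cyp11a1, Cyp11b1 and Cyp11b2 and the catecholamine enzyme Dbh were not well above background on any array. The steroid enzymes Cyp21a1, from -3.92 to -3.44, and Hsd3b1, from -4.02 to -3.70, were well above background on all 6 arrays. So were Nr5a1 and Akr1b7. Star differed by 0.34 ± 0.16, Th by 0.16 ± 0.09 and Mc2r by 0.49 ± 0.32.

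Of 8 skeletal muscle genes 6 passed, 4 higher and 2 lower with a median of 0.14, and Ckm and Myh1 were not well above background on any array. Myh4 differed by 0.25 ± 0.13 and Actn3 by 0.16 ± 0.13, and Tnnt3 by 0.66 ± 0.59, with C3aR-/- replicate 2 at -1.44 and the other arrays from -3.75 to -3.47. Podocyte markers gave 3 of 5 higher with a median of 0.07, Nphs1 at 0.26 ± 0.13, Podxl at 0.25 ± 0.17 and Synpo at 0.07 ± 0.23. Their mean centred level, 0.12 on WT replicate 3 and 0.19 on C3aR-/- replicate 3 against -0.29 to 0.14 elsewhere, was the one of 14 lists nearest in order to Cfd (r = 0.85), over a span far narrower than that of Cfd. Thick limb markers gave 2 of 3 higher with a median of 0.01, Slc12a1 at 0.23 ± 0.25, Cldn16 at -0.16 ± 0.27 and Umod at 0.005 ± 0.158. No gene of these lists had an unadjusted p under 0.05, and their part in the Cfd and Ucp1 values was not tested.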

How the data were processed

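RNA of 3 WT and 3 C3aR-/- samples was measured on 6 arrays of 1 slide, grouped by sample title. According to the file headers, spots (62976 on an array) were read by Agilent Feature Extraction 10.7.1.1, with probe positions on mm9. Per the file headers, the intensity column used, the processed signal, is already background-subtracted and is not scaled between arrays; the mean and background intensity served as an alternative. The table deposited by the authors gives log2 values with the same distribution in every column (median 5.73), and how it was made was not stated. Control spots and outlier spots were dropped. The 75th percentile of each array was subtracted from the log2 signal, and 34778 of 56605 probes passed the filter of 3 arrays well above background. A gene was represented by its brightest passing probe. The fit used limma 3.58.1 in R 4.3.3 over 22741 genes with Benjamini-Hochberg adjustment (0.05), after a check on simulated data; matplotlib 3.10.9 drew the figures.

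The members and gene lists were chosen with earlier results of these data known. The text names all 10 members; in each other list the 3 genes with the smallest p; in both fat lists also the 3 with the highest correlation with the mean of the members tested; and the 5 such genes of the whole table. Some genes that the rule selects are not reported here. C3ar1, C1qb, Msln, Lrrn4, Pnpla3, genes named only as being at background, and Plin2, Pi16, Tnnt3 and Cfp values by array were added after values were seen. Cyp21a1, Hsd3b1, Nr5a1 and Akr1b7 were added in the same way. A fold against an array at background is a bound, computed against the lowest level well above background there. The number of arrays limits the precision. Alternatives were normexp (offset 50), quantile and median scaling, the authors' table, other filters and probes, other variance models, blocks for replicate number and slide row, and left-out arrays.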

Additional observations from a re-analysis of the deposited data

How the results depend on the processing

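With limma, the count of genes with an adjusted p under 0.05 was 0 in all 20 settings, with 767 to 2115 genes at an unadjusted p under 0.05 (1111 as reported). That count was 2115 with array weights, 1742 with the slide row as a block and 2025 without WT replicate 1 and C3aR-/- replicate 2. Leaving out single arrays gave 767 to 1523. The median difference of the members tested stayed between 0.00018 and 0.37. The direction changed for Ucp1 with normexp (-0.084), for Lpl with the mean of probes (-0.019) and by 3 single probes (-0.20, -0.38 and -0.49), for Fabp4 with array weights (0.053) and without both replicate 3 arrays (0.27), and for Adipoq without WT replicate 1 and C3aR-/- replicate 2 (-0.15). Leaving out single arrays gave -0.66 to 2.71 for Cfd, -0.65 to 2.41 for Ucp1, -0.060 to 1.58 for Adipoq and -0.15 to 0.14 for Fabp4; the cause was not tested. Plin4, Lep, Retn and Cidec kept their direction in every setting in which they were fitted.

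Replicate numbers are shared by the groups, and the labels do not say whether a number pairs arrays. Deviations from the group means correlated over genes at 0.13, 0.41 and -0.09 for same-numbered arrays. For differently numbered arrays they ran from -0.37 to 0.35. These values cannot decide whether same-numbered samples were paired, since deviations from a mean of 3 arrays are not independent. With the replicate block, 0 genes passed adjustment. Under it Cidec gave -0.52 ± 0.12 (limma, unadjusted p = 0.00806, adjusted p = 0.493), Lpl 0.39 ± 0.12 (unadjusted p = 0.0279) and Cfd 0.84 ± 0.29 (limma, unadjusted p = 0.0392, adjusted p = 0.684), of which the number 2 pair of Cfd was not above background on either array.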
